A study of Mus musculus with 21 samples.

Results

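Microglia from ApoE knockout brains that received recombinant APOE protein (rAPOE) were set against microglia from knockout brains that received phosphate-buffered saline (PBS), the fluid in which the protein was dissolved. Both groups were taken by their labels, which gave 5 rAPOE and 5 PBS libraries, 10 of the 21 libraries of the series. The other 11 were from uninjected females, 7 wild-type C57BL/6 and 4 ApoE knockout. The series is a study of how ApoE shapes microglia in glioma, and this comparison asks what the protein does to microglial RNA in a brain that makes none of its own.

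Controls and treated libraries shared 1 strain, B6.129P2-Apoetm1Unc/J, whose Apoe locus carries a targeted disruption from the germ line on. All of these were labelled as males of 12 to 18 weeks, and the uninjected females carried the same age label. Per the labels, the injection went into the left hemisphere, and 16 h later both the injected and the opposite hemisphere were collected and their microglia isolated. The protocol text names rAPOE for every library and no separate PBS procedure. Which of the 2 hemispheres gave a given library, whether animals were pooled, the species, isoform and dose of the protein and whether it carried lipid are not stated in the labels. Nor do they state that each library is 1 mouse, and the p-values below therefore measure only how far these samples spread, technical spread included.

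Apolipoprotein E is the main lipid carrier of the brain, made mostly by astrocytes and also by microglia, and cells take it up through lipoprotein receptors. Microglia at rest hold a characteristic set of transcripts, among them purine receptors that let their processes sense damage. When Toll-like or cytokine receptors signal through NF-kB, or interferon receptors signal, microglia lower that set and make chemokines, cytokines and antiviral proteins.

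RNA was read as 3′ tags, short reads near the end of each polyadenylated transcript, and the deposited values are counts per gene divided by a factor for each library, called normalised counts here. PBS libraries held 704225 to 1347501 reads and rAPOE libraries 857059 to 1119059. Libraries numbered 1 to 3 of both groups detected 7601 to 8837 genes and those numbered 4 and 5 detected 10025 to 11342, so the test carried a term for these sets, each of which holds both treatments equally. The libraries numbered 5 went against their label as males in both groups, as neither had a read from 4 Y-linked genes and Xist was at 979 in PBS and 718 in rAPOE. Elsewhere these Y-linked genes gave 83 to 374 reads per library and Xist never exceeded 1.60. Results are therefore also given without these 2 libraries. Apoe itself reached at most 1.32 after PBS and 8.54 after rAPOE, the latter from 11 reads in rAPOE library 4. Where the disruption lies relative to the tags is not given in the sources used here, and injected protein adds no tags. In the separately normalised uninjected table Apoe was at 0 to 23.1 in 4 knockout libraries, against 13196 to 17163 in 6 wild-type libraries and 1011 in wild-type library 8. The 10 microglial markers, P2ry12 and Tmem119 among them, summed to 21072 to 25276 after PBS and to 10848 to 23047 after rAPOE, so the labelled cell type was plain in both groups.

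Tests covered the 7066 of 13297 genes whose mean reached 10, with limma on log2(normalised count + 1), a scale that understates the change of low genes. With passing set at a Benjamini-Hochberg adjusted p under 0.05, 44 genes rose after rAPOE (0.623% of those tested) and 29 fell (0.41%). The median difference over all genes tested was −0.01, and 49.4% of genes lay above 0 against 50.6% below. At an unadjusted p under 0.05 there were 849 genes (12.0%). The rises were of larger size, from 0.80 to 7.05 on the log2 scale, than the falls, from 0.65 to 1.85. Of the 44 risers, 38 had each rAPOE library above each PBS library, against 1.59% of all genes tested. Of the 29 that fell, 16 had each rAPOE library below each PBS library, against 1.54%. A low p on these same values selects for such gaps, so these shares describe the calls and are no separate support. Rises were found from a mean of 14.6 upward, whereas the gene with the lowest mean among those that fell was at 107. Of the 163 genes with a mean of 500 or more, 5 rose and 17 fell, whereas of the 4580 with a mean under 50, 5 rose.

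**Figure D1:**
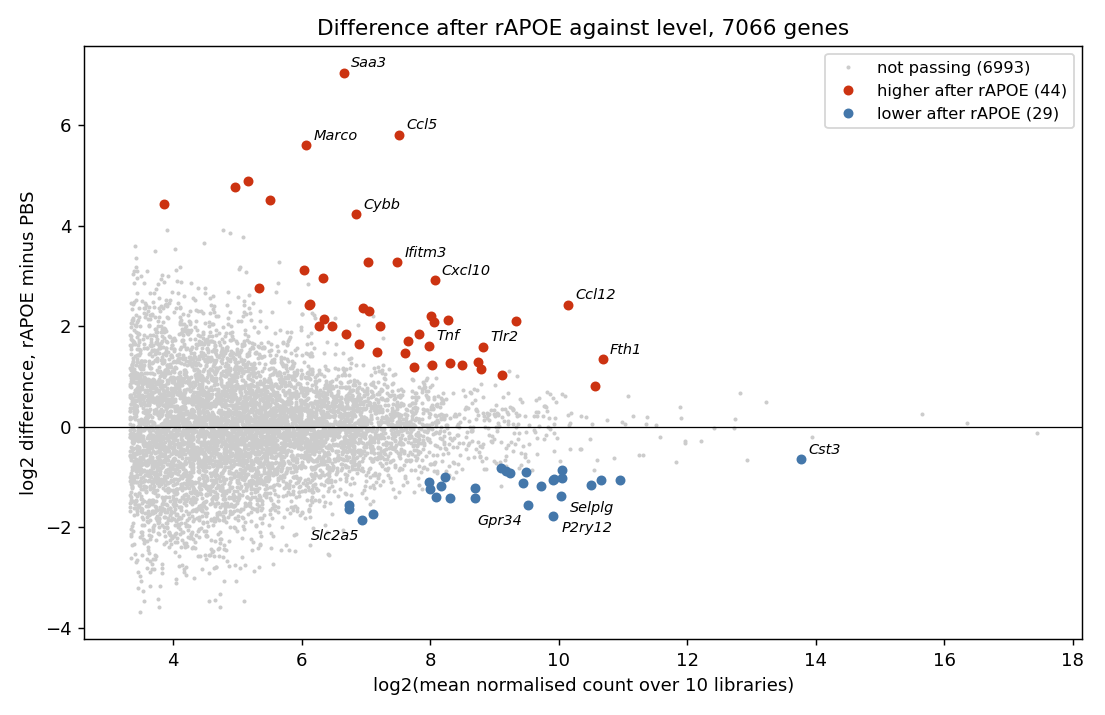
Each point is 1 of the 7066 genes tested, with log2 of the mean normalised count over 10 libraries on the x axis and the log2 difference, rAPOE minus PBS, on the y axis. The 44 genes that rose (red) reach 7.05 at Saa3, and the 29 that fell (blue) lie between −1.85 and −0.65 and mostly at higher levels.

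With each library left out in turn, 14 of the 44 rises and 3 of the 29 falls passed in all 10 fits, and without both libraries numbered 5 there were 12 rises (0.17%) and 5 falls (0.0708%). An edgeR quasi-likelihood test on the recovered reads gave 33 rises (0.467%) and 10 falls (0.142%). The genes Saa3, Ccl5, Marco, Cybb, Ifitm3, Cxcl10, Ccl12, Sod2, Cpd, Cxcl16, Tlr2 and Fth1 passed in every one of these fits, edgeR included, and are called the 12 steady rises here. P2ry12 and Selplg were the falls that did so. Each of the 73 genes had the same direction within libraries 1 to 3 and within libraries 4 and 5. They were chosen on these same libraries, which favours a shared direction.

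The members of the gene lists below were chosen with earlier results of these data known, so their counts and medians are descriptions only. Effectors of the acute phase and of inflammation held the largest rise. Of 20 listed genes, 17 were in the table and 10 were tested, and 4 of these rose and 0 fell, with a median difference of 2.39 against −0.01 over all genes. Of the 10, 4 had a PBS mean under 10, Saa3 and Marco among them. These could reach the filter mainly through the rAPOE libraries. Over all 17, with no filter on low values, the median was 1.62. Saa3, an acute-phase apolipoprotein that macrophages secrete, was at 0.827, 1.26, 0, 0 and 0 in PBS libraries 1 to 5, which is 2 reads in all. In rAPOE libraries 1 to 5 it was at 159, 193, 66.2, 205 and 386, or 1153 reads. Every rAPOE library thus stood far above every PBS library, and rAPOE library 5 was highest and library 3 lowest. The ratio of reads at equal depth was 607, with an exact 95% interval of 168 to 5018 that covers counting error only. Saa3, at chromosome 7, 46711998 to 46715700 (GRCm38, minus strand), rose by 7.05 in log2 units (SE 0.84, limma adjusted p = 8.18e-05, and 0.00559 without both libraries numbered 5).

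Marco, a scavenger receptor of macrophages that binds bacteria and modified lipoproteins, was at 0 in PBS libraries 1 to 3 and at 2.63 and 14.8 in libraries 4 and 5. A PBS library at 0 reads allows a level of up to 1.93 to 4.80, depending on its depth. After rAPOE it was at 112, 111, 34.1, 131 and 267, above every PBS library, and it rose by 5.61 (SE 0.85, limma adjusted p = 0.00107, and 0.0260 without the libraries numbered 5). Sod2, the mitochondrial superoxide dismutase that NF-kB induces, went from 41.6 ± 15.7 to 208 ± 36.3 (SD, n = 5 each), which is 4.99-fold (limma adjusted p = 0.00107). Il1rn, the natural antagonist of the interleukin 1 receptor, went from 10.5 ± 5.73 to 70.1 ± 26.2 (SD, n = 5 each; limma adjusted p = 0.0462), with no overlap between the groups. Its call was lost in 8 of the 10 fits with a library left out and without both libraries numbered 5 (adjusted p = 0.351).

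**Figure D2:**
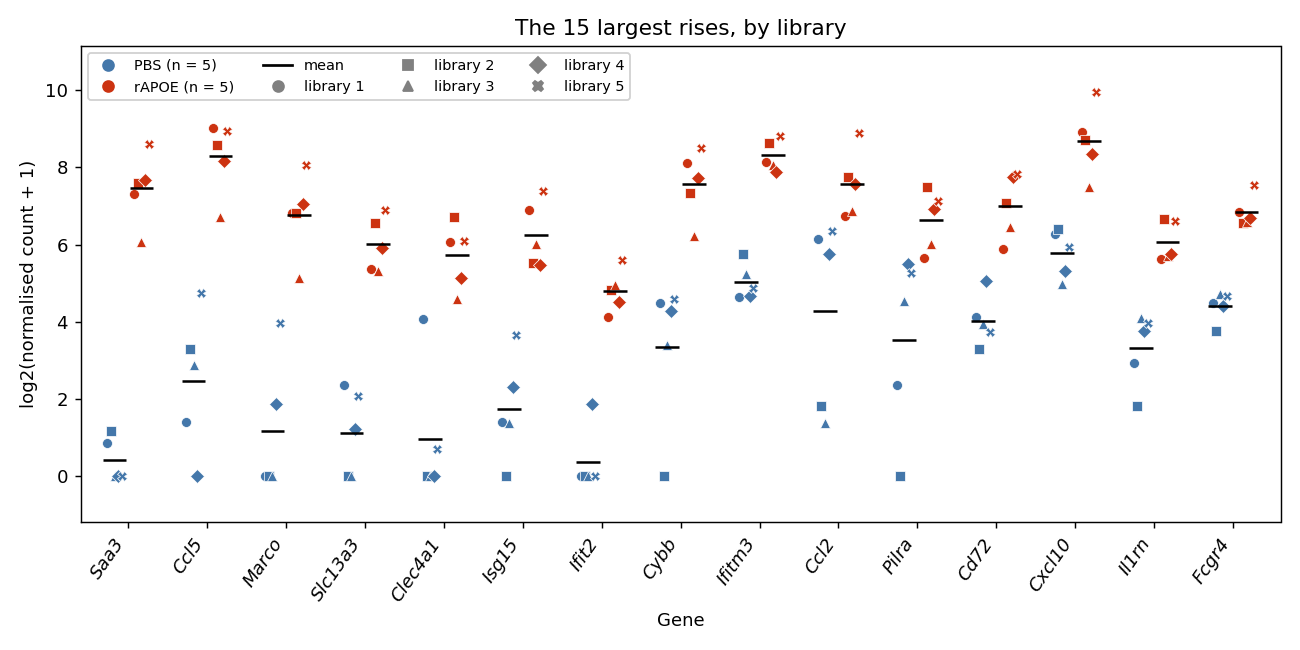
The 15 largest rises among named genes, with log2(normalised count + 1) on the y axis, 1 symbol per library and a bar at each group mean (n = 5). For all 15 genes each rAPOE library lies above each PBS library. In Saa3, Marco, Cybb and Cxcl10 rAPOE library 3 is the lowest red symbol and library 5 the highest.

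Chemokine ligands, the secreted proteins that draw leukocytes, gave the largest number of rises of any list. Of 22 listed, 17 were in the table and 12 were tested. Of these, 6 rose and 0 fell, with a median of 2.11 (1.38 over all 17 without a filter), and 10 were above 0 and 2 below. Ccl6 went the other way, from 204 ± 35.9 to 94.5 ± 37.2 (SD, n = 5 each). Its groups did not overlap, but it did not pass (limma adjusted p = 0.0772). Of the 12, 2 had a PBS mean under 10, Ccl5 among them, and could reach the filter mainly through the rAPOE libraries. Ccl5, which attracts T cells and monocytes, was at 1.65, 8.85, 6.40, 0 and 25.7 in PBS libraries 1 to 5 and at 519, 378, 103, 286 and 495 in rAPOE libraries 1 to 5. Its lowest rAPOE library was 3, and no values overlapped. Ccl5 rose 41.8-fold (log2 difference 5.82, SE 0.73, limma adjusted p = 1.16e-04, and 3.77e-04 without the libraries numbered 5).

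Cxcl10, an interferon-inducible ligand of the receptor CXCR3, was at 76.1, 83.4, 30.4, 38.9 and 59.8 after PBS and at 486, 418, 181, 325 and 989 after rAPOE, an 8.31-fold rise (log2 SE 0.39, limma adjusted p = 2.41e-04). Ccl12, a mouse monocyte chemoattractant that binds CCR2, was at 151, 484, 304, 329 and 403 after PBS and at 1639, 1720, 630, 2116 and 3584 after rAPOE. Neither gene had overlapping groups, and in both rAPOE library 3 was lowest and library 5 highest. Ccl12 rose 5.80-fold (log2 SE 0.31, limma adjusted p = 1.16e-04). Cxcl16, a membrane-bound chemokine that also takes up oxidised lipoprotein, went from 114 ± 7.75 to 510 ± 129 (SD, n = 5 each), 4.48-fold, with a limma adjusted p of 7.50e-05. Its PBS libraries spanned 106 to 123 only, and its lowest rAPOE library was at 330.

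Ccl2 and Ccl3 were less even. Ccl2, the main monocyte chemoattractant, split the PBS group, with 70.3, 52.7 and 80.4 in libraries 1, 4 and 5 against 2.53 and 1.60 in libraries 2 and 3. After rAPOE it was at 106 to 476, above all of these, and rose by 3.27 in log2 units (SE 0.69, limma adjusted p = 0.0197). The call was lost without rAPOE library 1, 2 or 5 or PBS library 3 (highest adjusted p = 0.0957), and Ccl2 had an edgeR adjusted p of 0.0925. Ccl3, a ligand of CCR1, had PBS values of 21.5 to 634 and rAPOE values of 256 to 2758, which overlapped, and it rose by 2.10 (SE 0.42, limma adjusted p = 0.0143). It lost the call without rAPOE library 2 or 5 or PBS library 5 (highest adjusted p = 0.0797). Its neighbour Ccl4 was at 301 ± 173 and 894 ± 1036 (SD, n = 5 each) and missed the threshold (limma adjusted p = 0.0615).

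Among cytokines and growth factors 8 of 18 listed genes were tested, and 2 rose, Tnf and Ccl3, the latter being in both lists. Tnf, a central inflammatory cytokine, was at 79.4, 41.7, 168, 166 and 162 after PBS and at 257, 179, 244, 523 and 709 after rAPOE. The lowest rAPOE library, at 179, stood just above the highest PBS library. Tnf rose 3.10-fold (log2 SE 0.32, limma adjusted p = 0.0125), and passed in edgeR (adjusted p = 0.0382). The limma call was lost without rAPOE library 5 (adjusted p = 0.0872), without both libraries numbered 5 (0.140) and without the term for the sets (0.0998).

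Il1b, the secreted form of interleukin 1 that inflammasomes activate, was at 48.8, 98.6, 35.2, 40.8 and 59.2 after PBS and at 178, 84.7, 61.2, 367 and 572 after rAPOE. Libraries 2 and 3 of the rAPOE group lay within the range of the PBS group, and the gene missed the threshold (log2 difference 1.76, SE 0.46, limma adjusted p = 0.0701). The difference was 0.80 in libraries 1 to 3 and 3.19 in libraries 4 and 5 (limma interaction, adjusted p = 0.99992). Il1a did not pass either (70.8 ± 58.6 and 92.3 ± 40.5, SD, n = 5 each, limma adjusted p = 0.552). Il6 had reads only in PBS libraries 2 and 5 (15 and 5) and rAPOE library 5 (1), and was below the filter. Il10 was not analysed here.

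Interferon-response genes were mostly low, and few passed. Of 50 listed genes, 48 were in the table and 32 were tested, and 4 rose and 0 fell, with a median difference of 1.70. Of the 32, 14 had a PBS mean under 10 and so could reach the filter mainly through the rAPOE libraries. Over all 48 without a filter the median was 1.28 and 42 were above 0, against 6764 of all 13297 genes. Ifitm3, a membrane protein that blocks virus entry, had the lowest p of all genes. It was at 24.0, 53.1, 36.8, 24.4 and 28.3 after PBS and at 283, 394, 267, 237 and 452 after rAPOE, a 9.81-fold rise (log2 SE 0.34, limma adjusted p = 2.43e-05, and 3.77e-04 without the libraries numbered 5). The lowest rAPOE library, 4, was far above the highest PBS library, 2.

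Isg15, a ubiquitin-like modifier, rose from 3.76 ± 4.60 to 87.6 ± 54.0 (SD, n = 5 each, limma adjusted p = 0.00926), and lost the call without rAPOE library 1 or 5 (0.0569 and 0.0890). Bst2, or tetherin, which holds budding virus at the cell surface, rose 3.38-fold from 91.6 ± 28.6 to 310 ± 137 (SD, n = 5 each, limma adjusted p = 0.00862), and lost the call without rAPOE library 5 (0.0794). Ifit2, an RNA-binding antiviral protein, had 4 reads over the PBS libraries, all of them in library 4, and 160 over the rAPOE libraries (limma adjusted p = 0.0394), a call that was lost in 9 of the 10 fits with a library left out.

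Among the 4, Ifitm3 alone passed without both libraries numbered 5. Irf7, the factor that amplifies type I interferon, did not pass. It was at 0 in rAPOE libraries 1 and 3 and at 25.2, 76.0 and 70.7 in libraries 2, 4 and 5, against 0 to 14.2 after PBS (limma adjusted p = 0.495).

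Promoter sequence is shown for 7 risers, all of which hold letters of sites that interferon-regulated factors or NF-kB are known to bind. The 7 therefore do not stand for all risers, and any part of these factors in the rises was not tested. The windows are RefSeq promoters on GRCm38.p6, searched over 300 bases (250 before to 50 after the start of the gene) and printed over the 250 before the start. Capitals mark matches to 2 motifs. One is GAAA, any 2 bases and GAAA again, the core of the interferon-stimulated response element, and the other is GGGA, any 4 bases and CC, a broad NF-kB site. Both strands were searched, a match on the other strand appears as its reverse complement, and one that reads the same on both strands was counted once. A match is a run of letters and not a shown binding site. All 7 windows lie on the minus strand, Saa3 at chr7:46715677-46715926, Cxcl10 at chr5:92348890-92349139, Ifitm3 at chr7:141010745-141010994, Isg15 at chr4:156200819-156201068, Cybb at chrX:9469325-9469574, Tlr2 at chr3:83841609-83841858 and Marco at chr1:120505025-120505274.
Saa3: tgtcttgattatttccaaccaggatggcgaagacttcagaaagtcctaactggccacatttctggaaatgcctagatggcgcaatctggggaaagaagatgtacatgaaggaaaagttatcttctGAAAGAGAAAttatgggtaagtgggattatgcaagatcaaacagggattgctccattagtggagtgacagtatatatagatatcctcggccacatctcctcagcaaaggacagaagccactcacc
Cxcl10: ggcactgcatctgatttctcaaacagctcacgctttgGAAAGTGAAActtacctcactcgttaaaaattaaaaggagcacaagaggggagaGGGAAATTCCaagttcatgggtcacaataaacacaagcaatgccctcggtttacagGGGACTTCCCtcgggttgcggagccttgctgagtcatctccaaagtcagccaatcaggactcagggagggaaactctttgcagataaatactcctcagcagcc
Ifitm3: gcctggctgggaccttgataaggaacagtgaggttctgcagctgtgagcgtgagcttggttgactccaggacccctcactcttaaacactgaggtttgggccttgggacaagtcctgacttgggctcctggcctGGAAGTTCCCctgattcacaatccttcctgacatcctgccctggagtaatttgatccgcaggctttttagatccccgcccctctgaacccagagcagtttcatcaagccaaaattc
Ifitm3 after the start: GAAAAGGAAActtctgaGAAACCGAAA
Isg15: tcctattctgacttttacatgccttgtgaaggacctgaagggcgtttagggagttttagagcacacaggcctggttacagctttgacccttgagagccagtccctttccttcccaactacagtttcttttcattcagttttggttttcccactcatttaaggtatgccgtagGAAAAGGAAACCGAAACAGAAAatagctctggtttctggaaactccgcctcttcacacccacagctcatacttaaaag
Cybb: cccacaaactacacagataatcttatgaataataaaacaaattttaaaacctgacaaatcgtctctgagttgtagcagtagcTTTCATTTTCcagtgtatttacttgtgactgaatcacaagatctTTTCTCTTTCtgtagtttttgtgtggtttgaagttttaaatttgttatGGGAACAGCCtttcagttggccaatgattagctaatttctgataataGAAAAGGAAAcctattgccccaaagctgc
Tlr2: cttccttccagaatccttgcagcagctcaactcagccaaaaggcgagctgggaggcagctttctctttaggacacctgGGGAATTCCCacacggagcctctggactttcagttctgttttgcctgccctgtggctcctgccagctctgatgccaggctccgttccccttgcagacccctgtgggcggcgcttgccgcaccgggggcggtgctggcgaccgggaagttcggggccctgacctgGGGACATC
Marco: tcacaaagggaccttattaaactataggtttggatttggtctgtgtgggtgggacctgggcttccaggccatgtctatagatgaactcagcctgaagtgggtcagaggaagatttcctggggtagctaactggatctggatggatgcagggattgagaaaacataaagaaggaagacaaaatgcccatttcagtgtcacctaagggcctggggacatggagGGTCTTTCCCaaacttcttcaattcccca

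Saa3 held 1 response element match, 125 bases before the start. Cxcl10 held 1 response element match at 213 bases and 2 NF-kB matches at 159 and 103 bases before the start. In Isg15 the 3 response element matches overlapped each other in 1 run that began 78 bases before the start, and Cybb had 3 such matches apart from each other and 1 NF-kB match. In Ifitm3 the window before the start held an NF-kB match only. Its 2 response element matches began at bases 3 and 20 of the transcript, in the stretch chr7:141010716-141010742 printed after its window, and none of these matches overlapped an NF-kB match. Tlr2 held 2 NF-kB matches, the second of which began 8 bases before the start and ran past it, and Marco held 1.

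Of the 44 risers 33 had a promoter in the table, and 8 of these (24.2%) held the response element. It was found in 2 of 26 genes that fell (7.69%), in 214 of 5551 tested genes with a promoter (3.86%) and in 3.44% of all 32851 windows. The NF-kB letters were more common throughout. They stood in 14 of the 33 risers (42.4%), in 5 of the 26 genes that fell (19.2%), in 30.2% of tested genes and in 20.7% of all windows. The response element holders were Saa3, Cxcl10, Isg15, Ifitm3, Cybb, Bst2, Fcgr4 and Pilra, of which Isg15, Ifitm3 and Bst2 were on the interferon list. Ccl12, Sod2 and Cpd, all steady rises, had neither match in these windows. Ccl5, Ccl2 and Cxcl16 were among the 11 risers with no entry.

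Pattern recognition receptors moved little as a group, with 1 of 21 tested Toll-like receptor genes higher, 0 lower and a median of 0.16. The gene that rose was Tlr2, the receptor for bacterial lipoproteins, with 212, 230, 450, 153 and 138 after PBS and 983, 552, 748, 542 and 537 after rAPOE. PBS library 3 was high at 450 but still under every rAPOE library, and Tlr2 rose 2.84-fold (log2 SE 0.25, limma adjusted p = 0.00121). Tlr4, the receptor for bacterial lipopolysaccharide, was at 72.6 ± 41.9 and 26.3 ± 15.6 (SD, n = 5 each) and did not pass (limma adjusted p = 0.347). Its co-receptor Cd14 was at 241 ± 40.4 and 284 ± 165 (SD, n = 5 each, limma adjusted p = 0.967), with the highest value, 546, in rAPOE library 5. Of 18 tested NF-kB subunits and feedback inhibitors 0 passed in limma or edgeR (median 0.32), and 4 had an unadjusted limma p under 0.05. Nfkbia, the inhibitor that NF-kB itself induces, was at 2038 ± 281 and 2526 ± 1122 (SD, n = 5 each, limma adjusted p = 0.728).

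Lipoprotein receptors and cholesterol genes, the list nearest to the injected protein, gave 1 rise and 1 fall among 28 tested members (median −0.23). Msr1, the class A scavenger receptor that takes up modified lipoproteins, was at 145, 72.1, 92.8, 57.3 and 91.4 after PBS and at 422, 406, 110, 500 and 769 after rAPOE. Only rAPOE library 3, at 110, overlapped the PBS group, and Msr1 rose 4.82-fold (log2 SE 0.39, limma adjusted p = 0.00862), a call lost without rAPOE library 5 (0.0593). Lrp1, the endocytic receptor that binds APOE, was at 210, 331, 322, 560 and 786 after PBS and at 35.4, 118, 164, 281 and 350 after rAPOE. In both groups the libraries numbered 4 and 5 were the highest, and the groups overlapped. Lrp1 fell by 1.43 in log2 units (SE 0.33, limma adjusted p = 0.0376) with a term for the sets, and this call was lost in 9 of the 10 fits with a library left out (highest adjusted p = 0.117).

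Abca1, the pump that loads cholesterol onto APOE, did not pass, at 272 ± 126 and 302 ± 104 (SD, n = 5 each, limma adjusted p = 0.870). Lpl, the lipoprotein lipase, was at 21.5, 17.7, 49.6, 121 and 75.3 after PBS and at 66.0, 219, 77.3, 378 and 459 after rAPOE. The groups overlapped at rAPOE libraries 1 and 3, and Lpl rose 4.20-fold (log2 SE 0.40, limma adjusted p = 0.0143), a call lost without rAPOE library 2 or 5 or PBS library 5 (highest adjusted p = 0.0890).

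Fcgr4, an activating Fc receptor for IgG, went from 20.9 ± 5.09 to 118 ± 38.9 (SD, n = 5 each), 5.65-fold (log2 SE 0.45, limma adjusted p = 0.00796), and was the only one of 13 tested Fc and complement genes to pass. The call was lost without rAPOE library 5 (0.0874), which stood alone at 187. Cd72, an inhibitory co-receptor, rose 8.56-fold from 16.9 ± 9.07 to 144 ± 75.5 (SD, n = 5 each, limma adjusted p = 0.00214) and passed with any 1 library left out, but not without both libraries numbered 5 (adjusted p = 0.0784). The inhibitory receptor Pilra and the C-type lectin Clec4a1 rose by 3.11 and 4.76 (SE 0.75 and 1.05, limma adjusted p = 0.0462 and 0.0247). They lost these calls in 8 and 7 of the 10 fits with a library left out. Slc13a3, a transporter of dicarboxylates, went from 1.73 ± 1.88 to 70.3 ± 35.0 (SD, n = 5 each, limma adjusted p = 0.00926) and lost the call without rAPOE library 2 or 5 (highest adjusted p = 0.0887).

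Redox and iron genes had 5 of 29 tested members higher and 0 lower (median 0.40). Cybb, the catalytic subunit of the phagocyte NADPH oxidase, was at 21.5, 0, 9.60, 18.4 and 23.2 after PBS and at 275, 161, 74.3, 211 and 361 after rAPOE. No values overlapped, and Cybb rose 14.9-fold (log2 difference 4.23, SE 0.68, limma adjusted p = 0.00161). Its partner subunits Cyba, Ncf1 and Ncf4 did not pass in limma or edgeR, with log2 differences of 0.25, 0.03 and 1.08, and 0 of them had an unadjusted limma p under 0.05. Fth1, the ferritin heavy chain that stores iron, was at 798, 776, 1014, 1040 and 908 after PBS and at 2813, 2430, 1283, 2335 and 3100 after rAPOE. The lowest rAPOE library was again 3, above all PBS libraries, and Fth1 rose 2.64-fold (log2 SE 0.20, limma adjusted p = 0.00107). Tfrc, the transferrin receptor that brings iron in, rose from 32.3 ± 18.9 to 131 ± 41.1 (SD, n = 5 each, limma adjusted p = 0.0250), and lost the call in 6 of the 10 fits with a library left out. Prdx5 and Sod2 were the other members that rose. Fth1 has processed copies in the genome, and how the authors' counting treated shared tags is not stated.

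Lysosomal genes went in both directions. Of 36 tested, Ctsc rose and Ctsd and Cst3 fell (median −0.33, with 27 below 0, against 50.6% of all genes tested). Ctsc, a protease that activates serine proteases, went from 362 ± 70.6 to 744 ± 166 (SD, n = 5 each, limma adjusted p = 0.0209). Ctsd, the aspartic protease cathepsin D, went from 2593 ± 574 to 1392 ± 811 (SD, n = 5 each, limma adjusted p = 0.0220). Cst3, the secreted inhibitor cystatin C, was at 16163 to 17718 after PBS and at 8882 to 12233 after rAPOE, which did not overlap (limma adjusted p = 0.0462). These calls were lost in 5, 4 and 8 of the 10 fits with a library left out.

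Of the tested genes of energy use and protein synthesis, 1 passed. Over all genes tested, 49.4% were above 0. Of 51 tested genes of oxidative phosphorylation, 40 were above 0 (median 0.47), and of 20 tested genes of glycolysis and hypoxia 16 were (median 0.88), and in either list 0 passed in limma or edgeR. Of the 20 glycolysis and hypoxia genes 5 had a PBS mean under 10, and without a filter 19 of the 25 in the table were above 0 (median 0.89). At an unadjusted limma p under 0.05 there were 11 and 6 genes of these lists, all of them higher, where 5.69% of all genes tested were higher at that p. Among 59 tested cytosolic ribosomal proteins 57 were above 0, with a median of 0.39, and only Rps2, a protein of the small subunit, rose (271 ± 69.9 to 619 ± 222, SD, n = 5 each, limma adjusted p = 0.0212). The Rps2 call was lost in 6 of the 10 fits with a library left out. Cpd and Cdkn1a belonged to no list and are named after their values were seen. Cpd, a carboxypeptidase of the Golgi, rose by 2.21 (SE 0.34, limma adjusted p = 0.00107), and Cdkn1a, the cell cycle inhibitor p21, by 2.30 (SE 0.41, limma adjusted p = 0.00561).

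Of the 29 genes that fell, 13 were on the list of genes of resting microglia. Of all genes tested 0.41% fell. All 39 genes of this homeostatic list were tested and 0 rose, with a median of −0.76 against −0.01 over all genes. Below 0 were 37 of the 39, against 50.6% of all genes tested. The exceptions were the purine receptor P2ry6 and Tgfbr2. In 9 of the 39 each rAPOE library was below each PBS library, against 1.54% of all genes tested. Without both libraries numbered 5 the median was −0.61 and 3 passed. The 10 marker genes of microglia, all of them on this list too, were each below 0, and 3 passed. In a bulk sample, fewer cells of a type and less RNA per cell cannot be told apart.

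P2ry12, the ADP receptor that steers microglial processes to damage (chromosome 3, 59216272 to 59262871, minus strand), was at 1604, 1191, 1368, 1526 and 1450 after PBS and at 514, 302, 1110, 319 and 226 after rAPOE. Library 3 of the rAPOE group, at 1110, was just under the lowest PBS library, and the others were far below. P2ry12 fell by 1.77 on the log2 scale, 2.89-fold (SE 0.28, limma adjusted p = 0.00161, and 0.0161 without the libraries numbered 5). Selplg, the P-selectin ligand, was at 1430, 1263, 1465, 1611 and 1730 after PBS and at 691, 639, 808, 548 and 314 after rAPOE, with a wide gap between the groups. It fell by 1.38 (SE 0.22, limma adjusted p = 0.00132, and 0.0161 without the libraries numbered 5).

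Siglech, a lectin that marks microglia, went from 394 ± 79.1 to 154 ± 54.1 (SD, n = 5 each), a fall of 2.56-fold (limma adjusted p = 0.00862), and passed with any 1 library left out but not without both libraries numbered 5 (adjusted p = 0.0857). Gpr34, a receptor for lysophosphatidylserine, was at 1113, 886, 973, 1134 and 1127 after PBS and at 534, 296, 843, 279 and 143 after rAPOE. It fell by 1.57 (SE 0.30, limma adjusted p = 0.00926), and lost the call without rAPOE library 2 (0.0525). P2ry13, the neighbour of P2ry12 on chromosome 3, was at 2147 in rAPOE library 3, above every PBS library, and at 427 to 887 in the other rAPOE libraries. It fell by 1.16 (SE 0.25, limma adjusted p = 0.0206), a call lost in 6 of the 10 fits with a library left out.

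Slc2a5, the fructose transporter, had the largest fall, from 188 ± 112 to 57.2 ± 42.9 (SD, n = 5 each, log2 difference −1.85, SE 0.40, limma adjusted p = 0.0209), with overlapping groups and a call lost in 6 of the 10 fits. Adgrg1, an adhesion receptor, and Cd164, a sialomucin, fell by 1.19 and 1.17 (SE 0.26 and 0.24, limma adjusted p = 0.0250 and 0.0161), and each lost the call in 6 of the 10 fits. Sparc, Jun, Rhob and Cst3 were among the other members that fell.

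Other genes by which microglia are known did not pass. Tmem119, a microglial membrane protein, was at 1864 ± 363 and 1140 ± 588 (SD, n = 5 each, limma adjusted p = 0.0640), with rAPOE library 3 at 1980 among the PBS values. Trem2, the lipid-sensing receptor that also binds APOE, was at 322 to 523 after PBS and at 113 to 339 after rAPOE (limma adjusted p = 0.0615). Cx3cr1, the fractalkine receptor, was at 5227 ± 613 and 4330 ± 830, and Csf1r, the receptor for the growth factors microglia live on, at 3047 ± 717 and 2070 ± 518 (SD, n = 5 each, limma adjusted p = 0.485 and 0.210). In the TGF-beta pathway, which maintains the resting state, 0 of 21 tested genes passed in limma or edgeR (median −0.08), with 1 higher and 2 lower at an unadjusted limma p under 0.05. Tgfbr1 was at 835 ± 273 and 502 ± 261 (SD, n = 5 each, limma adjusted p = 0.206) and Tgfb1 had a limma adjusted p of 0.665.

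**Figure D3:**
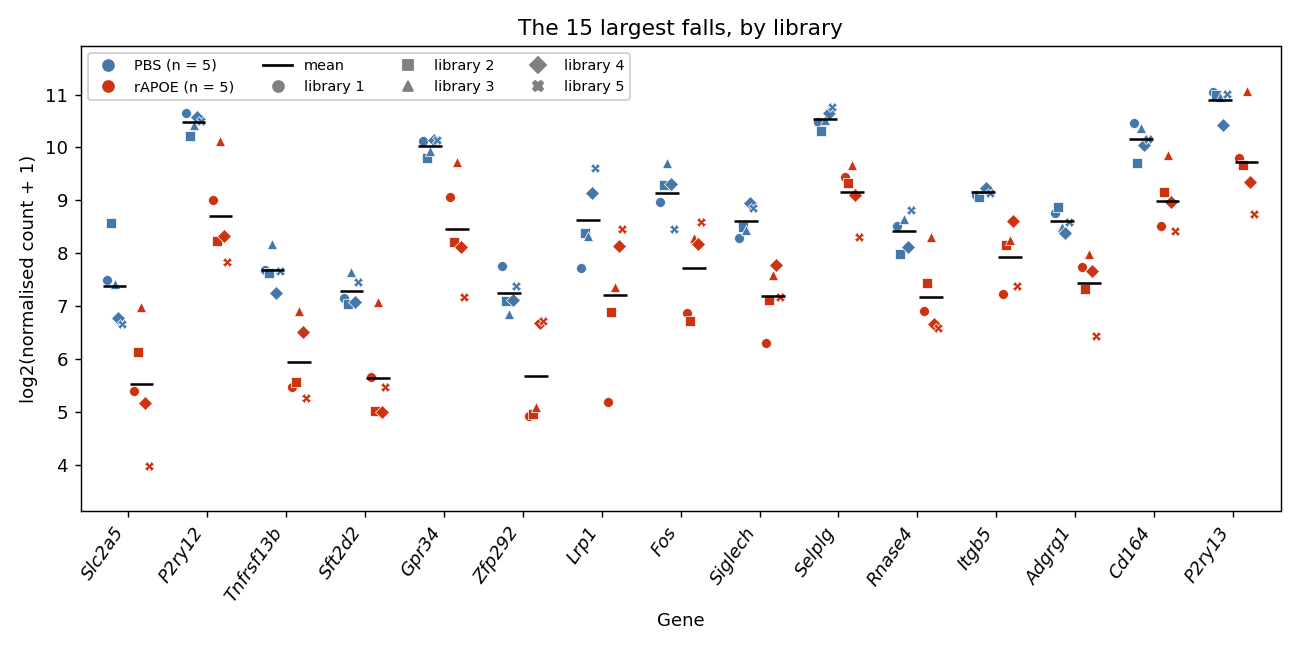
The 15 largest falls among named genes, with log2(normalised count + 1) on the y axis, 1 symbol per library and a bar at each group mean (n = 5). Selplg and Itgb5 show a gap between the groups, while rAPOE library 3 (triangle) lies at or near the PBS values for P2ry12, Gpr34, P2ry13 and Cd164.

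Of 24 tested immediate early and heat shock genes, Fos, Jun and Btg2 fell and 0 rose (median −0.46). Jun is also on the homeostatic list. Fos was at 497, 622, 830, 632 and 353 after PBS and at 117, 104, 311, 288 and 383 after rAPOE. The groups overlapped through the libraries numbered 5, where rAPOE was higher than PBS, and Fos fell by 1.42 (SE 0.33, limma adjusted p = 0.0368). Its difference was −2.02 in libraries 1 to 3 and −0.51 in libraries 4 and 5 (limma interaction, adjusted p = 0.99992), and the call was lost in 6 of the 10 fits. Btg2, an antiproliferative factor, went from 1299 ± 333 to 621 ± 168 (SD, n = 5 each, limma adjusted p = 0.0102) with no overlap, and lost the call without PBS library 4 (0.0530).

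Further falls were Tnfrsf13b, the TACI receptor, by 1.73 (SE 0.36, limma adjusted p = 0.0189), the integrin chain Itgb5 by 1.22 (SE 0.26, limma adjusted p = 0.0193), the secreted ribonuclease Rnase4 by 1.24 (SE 0.30, limma adjusted p = 0.0466) and Sft2d2, a protein of vesicle transport, by 1.64 (SE 0.40, limma adjusted p = 0.0462). They lost these calls in 5, 6, 8 and 8 of the 10 fits with a library left out. Zfp292, a zinc finger protein, fell by 1.56 (SE 0.38, limma adjusted p = 0.0471) but lost the call in all 10.

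Disease-associated genes, the set that microglia express around plaques and dying cells in a manner that depends on Trem2, did not move one way. Of 22 tested, Lpl and Cd52 rose and Ctsd fell, and the median was −0.24. Cd52, a small surface glycoprotein, went from 103 ± 36.3 to 286 ± 87.1 (SD, n = 5 each, limma adjusted p = 0.0201), and lost the call without rAPOE library 1, 2 or 5 or PBS library 4 (highest adjusted p = 0.116). Of 14 tested genes of glioma-associated and alternatively activated microglia 1 rose, Msr1 (median 0.42). In antigen presentation 0 of 21 tested genes passed in limma or edgeR (median 0.06), with 1 higher and 2 lower at an unadjusted limma p under 0.05. The same was true of the unfolded protein response (0 of 20, median 0.18, 3 higher unadjusted) and of the cell cycle (0 of 10, median 0.56, 2 higher unadjusted). Among 20 tested genes of actin, adhesion and migration Itgb5 and Selplg fell (median 0.08).

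**Figure D4:**
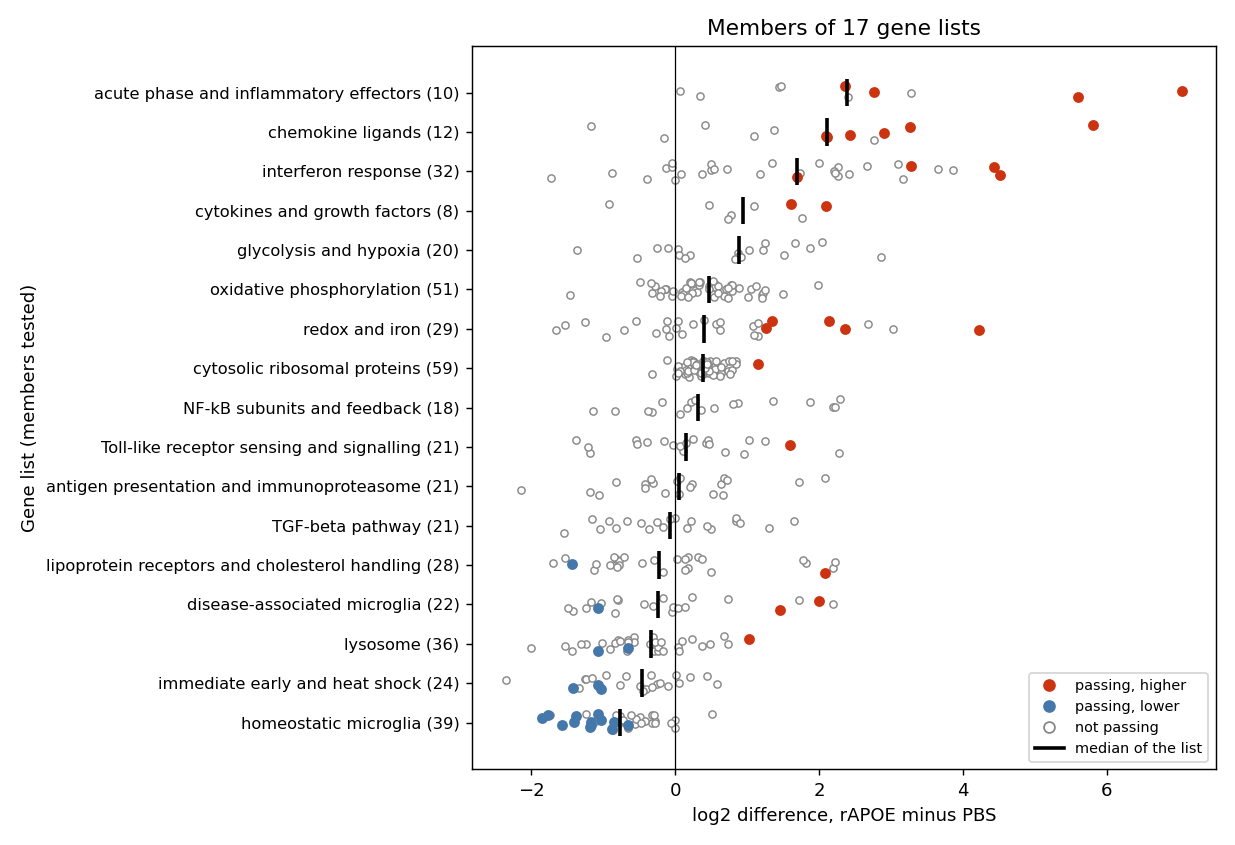
Log2 difference, rAPOE minus PBS, of each tested member of 17 gene lists, with the number tested in brackets, filled points for genes that passed and a bar at the list's median. Acute phase, chemokine and interferon lists lie to the right, with medians of 2.39, 2.11 and 1.70, and the homeostatic list to the left at −0.76. Without a filter on low values the acute phase, chemokine and interferon medians were 1.62, 1.38 and 1.28. List members were chosen with earlier results of these data known, so the medians are descriptions only.

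The 73 genes were chosen in a fit over both sets, so their shared direction in the sets is no separate support. Sizes differed somewhat between the sets. The homeostatic median was −0.57 in libraries 1 to 3 and −0.94 in libraries 4 and 5, and the chemokine median 1.69 and 2.24. P2ry12 differed by −1.31 and −2.47, and Gpr34 by −0.95 and −2.50. In a limma test of the difference between the sets 0 of the 7066 genes passed (0.0%), and 147 (2.08%) had an unadjusted p under 0.05. Within libraries 1 to 3 (3 against 3), 5 genes rose (0.0708%) and 1 fell (0.0142%), and within libraries 4 and 5 (2 against 2), 73 rose (1.03%) and 52 fell (0.736%).

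**Figure D5:**
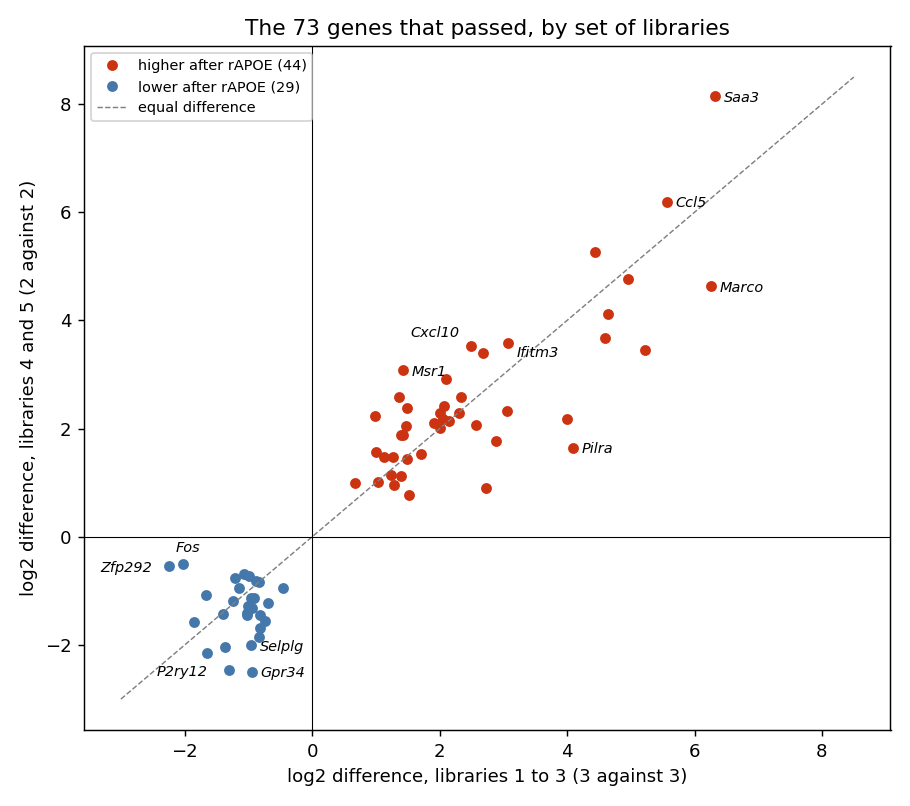
Log2 difference of the 73 genes that passed in libraries 1 to 3 (x axis) and in libraries 4 and 5 (y axis), with a dashed line where both are equal. All 44 rises lie above 0 and all 29 falls below 0 on both axes, and Gpr34, P2ry12 and Selplg lie below the line. The genes were chosen on these same libraries, which favours a shared direction.

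Within the rAPOE group, library 3 was nearest to PBS and library 5 farthest. Library 3 was the lowest of the 5 for 23 of the 44 rises, against 24.1% of all genes tested, and the highest for 18 of the 29 falls, against 22.5%. Library 5 was the highest for 24 of the 44 rises (16.4% of all genes) and the lowest for 16 of the 29 falls (11.4%). For 5 of the 29 falls library 5 was instead the highest. The summed microglial markers followed the same order at the ends, with 23047 in library 3 and 10848 in library 5.

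Markers of other cells were low beside those of microglia. Monocyte markers (13 of 14 in the table) summed to 13.9 to 30.9 after PBS and to 37.7, 110, 6.02, 50.4 and 128 in rAPOE libraries 1 to 5. Of its defining members, Ly6c2 was at 0 in all PBS libraries and at most 4.66 after rAPOE, Ccr2 was at 0 to 13.9 and 0 to 23.2, and Lyz1 was not analysed here. The monocyte sum was above the PBS range in the 4 rAPOE libraries in which Saa3, Ccl5, Ccl12 and Marco were highest, and below it in library 3. In library 3, where the sum was 6.02, Saa3, Ccl5, Marco and Ccl12 were at 66.2, 103, 34.1 and 630. Each of these values was the lowest of the rAPOE group and above every PBS library. The part of monocytes in those rises was not tested. Neutrophil markers (8 of 16 in the table) summed to 92.3 to 208 after PBS and 6.02 to 165 after rAPOE, without Ly6g, Mpo and Elane, which had no row. Border macrophage markers (9 of 10) summed to 69.5 to 174 and 47.4 to 120. T and NK cell markers (1 of 14 in the table) summed to at most 1.60 and 2.33, and came from Klrd1 alone. B cell markers (4 of 8) summed to 108 to 292 and 51.5 to 164, astrocyte markers (8 of 9) to 154 to 251 and 128 to 254, and neuron markers (9 of 10) to 57.3 to 141 and 44.4 to 145. Oligodendrocyte, endothelial and erythrocyte markers stayed at or below 132 in every library. Ttr, the choroid plexus carrier of thyroid hormone, was at 0.827 to 26.5 in PBS and 0 to 21.2 in rAPOE libraries 1 to 3, and at 108 and 203 and at 130 and 442 in those numbered 4 and 5.

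Levels without injection come from a table that was normalised apart, so only the order within it can be read. The uninjected groups are female. The 4 knockout libraries detected 8130 to 10495 genes from 4252292 to 4974353 reads. The wild-type libraries detected 13611 to 15269 genes from 2018489 to 3057978 reads. Gene detection thus differed with genotype, and its part in the orders given below, those of low genes included, was not tested. The wild-type group includes library 8, which stood apart in Apoe. Several of the rises, but not all, were genes that the other 6 wild-type libraries held at higher levels than the 4 uninjected knockout libraries. Saa3 was at 1027 to 1482 in them (0 in library 8) and at 0 to 4.43 in the knockout. Marco was at 91.3 to 168 (0 in library 8) against 0 to 8.87, Cybb at 586 to 804 (18.1 in library 8) against 42.3 to 151, and Ifitm3 at 234 to 323 (27.1 in library 8) against 0 to 52.8. Lpl, at 1152 to 1748 and 21.7 to 107, and Msr1, at 97.3 to 188 and 0 to 31.2, had the same order, and wild-type library 8 was at 54.2 and 3.61. The steady rises Tlr2, Fth1 and Sod2 overlapped. In the 6 wild-type libraries they were at 102 to 172, 2245 to 2578 and 106 to 170 (52.4, 872 and 68.6 in library 8). In the knockout they were at 101 to 286, 2011 to 2500 and 44.5 to 167.

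Among the chemokines, Ccl3 had the same order, at 485 to 877 (137 in library 8) against 156 to 365 in the knockout. Cxcl16 was at 135 to 190 (61.4 in library 8) and 55.3 to 159, which overlapped, and Ccl5 was at 13.3 to 49.5 (3.61 in library 8) and 0 to 22.7. Cxcl10 was at 10.4 to 34.8 in all 7 wild-type and 8.42 to 53.4 in the knockout libraries, Ccl12 at 36.1 to 64.1 and 0 to 128, and Ccl2 at 9.03 to 64.1 and 23.3 to 76.6. P2ry12 was at 1959 to 2604 in the 6 wild-type libraries (5821 in library 8) and at 4364 to 5074 in the knockout, and Selplg at 3441 to 4081 (5310 in library 8) and 6167 to 7799. Of other falls, Slc2a5, Sft2d2, Gpr34, Rnase4, Adgrg1, Cd164, Cst3 and Btg2 had that order in the same 6 libraries. Siglech, Itgb5, Tnfrsf13b, Zfp292, Lrp1, Fos and Jun overlapped. P2ry13 and Ctsd had the reverse order. P2ry13 was at 3194 to 3966 (6575 in library 8) and 2670 to 2974 in the knockout. Ctsd was at 33013 to 39772 (13571 in library 8) and 18797 to 22171. All these genes were named for their response to rAPOE, so this is a description of their levels and no test was made.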

How the data were processed

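Microglial RNA was sequenced as 3′ tags in 10 libraries of injected knockout mice (5 rAPOE, 5 PBS). The deposited values are a signal per gene, counts that the authors divided by a factor for each library. The build was GRCm38.p3, and the tools were R 3.2.3, Picard 1.8.4, DESeq2 and HTSeq, in no stated order, per the submitters' processing notes. Aligner and strand setting: not given in the sources used here. All values were whole multiples of 1 step per library (tolerance 0.01 reads), which gave back the reads, 704225 to 1347501 per library. No 2 libraries of a group agreed within sampling noise (chi-square per degree of freedom 9.20 or more).

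Genes with a mean of at least 10 were tested with limma 3.58.1 (R 4.3.3, intensity trend, two-sided) on log2(normalised count + 1), with a term for libraries 1 to 3 against 4 and 5, and Benjamini-Hochberg adjustment over all 7066 genes. Folds are ratios of group means and SE is limma's. edgeR 4.0.16 (quasi-likelihood) on the recovered reads was an alternative, as were other pseudocounts, filters, scalings, the replicate block and left-out libraries. The members of the gene lists, and the comparison itself, were chosen with earlier results of these data known. Genes named were the 15 largest rises and 15 largest falls without unnamed models, up to 4 passing members of each of 22 lists by adjusted p, and a fixed set, of which a few genes are not reported here. Gene positions are those of GENCODE M21 and promoters those of RefSeq. In simulated data for this comparison (7066 genes) the test recovered 48% of 8-fold and 1% of 2-fold changes and called 0 unchanged genes, so a small change that did not pass is not shown to be absent. Intervals and read floors cover counting error only. The uninjected libraries were normalised apart and were only described.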

Additional observations from a re-analysis of the deposited data

Results flagged for a closer look

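In 8 of 122 groups of 5 libraries, 1 library stood apart from the other 4 by Dixon's ratio of its gap to the range, on log2(normalised count + 1). Chance alone gives this in about 1 in 20 groups. Clec4a1 was at 15.7 in PBS library 1 and at 0 to 0.644 in the other PBS libraries. Ifit2 was at 2.63 in PBS library 4 and at 0 in the others, and Cybb at 0 in PBS library 2 against 9.60 to 23.2. In PBS library 4, P2ry13 was at 1377 against 1989 to 2120 and Cx3cr1 at 4148 against 5345 to 5647. Among rAPOE libraries, Fcgr4 was at 187 in library 5 against 93.8 to 113. In rAPOE library 1, Sod2 was at 145 against 210 to 233 and Abca1 at 119 against 330 to 376.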

How the results depend on the processing

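The 44 rises became 26 without the term for the sets, 69 with quantile rescaling, 12 without both libraries numbered 5, 5 in libraries 1 to 3 and 73 in libraries 4 and 5. They stayed within 1.5 times of 44 with other pseudocounts (36 and 63), a mean of at least 50 (50), no filter (34), TMM rescaling (47) and edgeR (33). The 29 falls became 8 without the term, 46 with a pseudocount of 5, 53 with a mean of at least 50, 52 with quantile rescaling, 10 in edgeR, 5 without both libraries numbered 5, 1 in libraries 1 to 3 and 52 in libraries 4 and 5. The 2 within-set counts rest on fewer samples, and the cause of the other changes was not tested. Leaving out 1 library gave 14 (without rAPOE library 5) to 56 rises (without PBS library 2) and 5 (without rAPOE library 2 or PBS library 4) to 57 falls (without rAPOE library 3), and 0 genes that differed between the sets each time. In the same fits 3 to 5 acute phase genes, 4 to 7 chemokines and 1 to 5 interferon genes rose and 3 to 16 homeostatic genes fell. Acute phase rises were 1 with a mean of at least 50 and 0 in libraries 1 to 3. Interferon rises were 2 with a mean of at least 50, 1 without both libraries numbered 5, 1 in libraries 1 to 3 and 9 in libraries 4 and 5. Homeostatic falls were 5 without the term, 8 in edgeR, 3 without both libraries numbered 5 and 0 in libraries 1 to 3. With the replicate number as a block there were 35 rises and 17 falls. The numbers were not taken to pair the libraries, since same-numbered libraries correlated at −0.00 to 0.19 and not every library correlated best with its own number. Libraries numbered 4 and 5 of both groups did share higher gene detection, which the term for the sets carries, and both libraries numbered 5 shared the mismatch with their label.

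Of the 61 named genes, 3 that had not passed changed sign. Abca1 was at −0.024 without PBS library 2 (to 0.45 without rAPOE library 1). Cd14 was at −0.08, −0.23, −0.04 and −0.06 without rAPOE library 2, rAPOE library 5, PBS library 4 or PBS library 5 (to 0.26 without rAPOE library 3), −0.28 without both libraries numbered 5 and −0.43 in libraries 1 to 3. Nfkbia was at −0.050 without both libraries numbered 5 and −0.085 in libraries 1 to 3. A library at 0 reads allows a level of up to 1.93 to 4.80, which bounds what low genes such as Ifit2 and Irf7 can show.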
